A study of Mus musculus with 12 samples.

Results

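The levels of 3 mature microRNAs were followed across all groups of an irradiation experiment in LLC1, a line grown from the mouse Lewis lung carcinoma. They were mmu-miR-22-3p, mmu-miR-10a-5p and mmu-miR-10b-5p (written without the mouse prefix below), taken by name from the array's list of entries, which makes 3 of 576 entries. All 3 were among the 118 entries tested, that is, detected on every array of at least 1 group. MicroRNA was measured on 12 Agilent 1-colour arrays, 1 per sample, with 3 arrays in each of 4 groups. Control cells were untreated. The other cells received 2 Gy at once, 10 Gy at once, or 10 Gy split into 5 fractions of 2 Gy (5x2 Gy), and their RNA was taken 4 h after irradiation. All groups came from the same cell line, cultured in the same medium. Replicates are biological according to the labels, which do not say whether cultures or days were shared, so p-values measure the spread between these samples.

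A microRNA is cut from a hairpin precursor and guides the silencing machinery to messenger RNAs that pair with its seed, a short stretch near its 5′ end. miR-22 is induced by p53 in some cells and can repress Cdkn1a, which encodes the cell cycle inhibitor p21, a main effector of arrest after DNA damage. miR-10a and miR-10b are encoded within the Hoxb and Hoxd clusters, whose homeobox genes pattern the body axis, and miR-10b has been linked to invasion in carcinoma cells.

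The mature sequences are shown because the seed sets the likely targets and because miR-10a and miR-10b are nearly identical. All 3 names matched the RefSeq miRNA table of build GRCm38.p6. Capitals mark the seed, bases 2 to 8.
miR-22-3p: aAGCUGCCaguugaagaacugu
miR-10a-5p: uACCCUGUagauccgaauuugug
miR-10b-5p: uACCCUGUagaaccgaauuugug
No other of the 1679 mature miRNAs in that table carried the seed of miR-22-3p. The seed of the miR-10 pair was shared by those 2 only. Counted from the 5′ end of miR-10a-5p, the single difference from miR-10b-5p over 23 bases was U12A, outside the seed. Whether the array's probes separate them was not tested here.

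The hairpins show which arm was measured, with the measured arm in capitals.
Mir22: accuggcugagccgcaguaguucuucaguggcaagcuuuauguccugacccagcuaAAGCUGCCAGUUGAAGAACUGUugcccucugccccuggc
Mir10a: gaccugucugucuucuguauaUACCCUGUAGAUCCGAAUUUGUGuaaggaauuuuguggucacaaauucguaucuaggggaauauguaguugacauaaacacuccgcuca
Mir10b: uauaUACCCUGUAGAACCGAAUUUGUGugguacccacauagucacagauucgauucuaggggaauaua
In RefSeq's GRCm38.p6 annotation the Mir22 hairpin lies at chr11:75463716-75463810, plus strand, within the noncoding host gene Mir22hg and between Wdr81 and Tlcd2. Mir10a lies at chr11:96317165-96317274, plus strand, within the span of Hoxb3 and between Hoxb5 and Hoxb4. Mir10b lies at chr2:74726070-74726137, plus strand, within the spans of Hoxd3 and Hoxd4 and between Hoxd8 and Hoxd1. The array was designed on mm9 per the file headers, and no coordinates of that build are given here.

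The arrays differed in brightness. The 75th percentile of intensity, over the 78 probes detected on every array, ran from 110 to 703 in controls, 316 to 897 at 2 Gy, 307 to 867 at 10 Gy and 1004 to 1102 with 5x2 Gy. Control replicate 2 stood apart as the dimmest array (110), with 48 entries detected, against 62 to 137 on the others. None of the 3 miRNAs was well above background on it. Slide 1 carried every control and 2 Gy array and all 10 Gy arrays but replicate 3, which shared slide 2 with the 5x2 Gy arrays. Levels below are log2 values relative to each array's 75th percentile, with a floor at -4.06. Epithelial markers of the miR-200 and miR-205 kind were detected on 0 arrays (6 entries on the array), as were the muscle markers (3 entries). Of 5 blood cell markers 2 were tested, with miR-142a-3p detected on all 12 arrays and miR-223-3p, miR-451a and miR-150-5p on 0. The summed level of 6 entries traced to rRNA or tRNA or rich in GC ran from 3.13 to 3.92 in controls and from 2.51 to 3.02 in irradiated cells, and its part in the results below was not tested.

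miR-22-3p was highest after 5x2 Gy, where its mean lay 0.89 above that after 2 Gy and 0.76 above that after 10 Gy on the log2 scale (1.86-fold and 1.69-fold). No comparison between groups passed the adjusted threshold of 0.05. The control group held both the 4th highest of its 12 levels and the lowest, so that differences from control rest on a group with a wide spread.

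The control levels of miR-22-3p were -1.64, -3.28 and -1.99 in replicates 1, 2 and 3. After 2 Gy they were -2.91, -2.27 and -2.33. After 10 Gy they were -2.41, -2.44 and -2.25. The lowest value of all 12 was control replicate 2, where the miRNA was not well above background. On that array 1 of its 2 probes, at -4.44, was raised to the floor before the probes were averaged. After 5x2 Gy the levels were -1.58, -1.62 and -1.63, which lie within a far narrower range than those of the controls. The group means ± SD (n = 3 each) were -2.30 ± 0.86 in controls, -2.50 ± 0.35 in the 2 Gy group, -2.37 ± 0.10 in the 10 Gy group and -1.61 ± 0.03 in the 5x2 Gy group. Without replicate 2 the control mean was -1.81 ± 0.25 (n = 2). In that order of means, 2 Gy, 10 Gy and control were neighbours that did not differ beyond their spread.

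**Figure D1:**
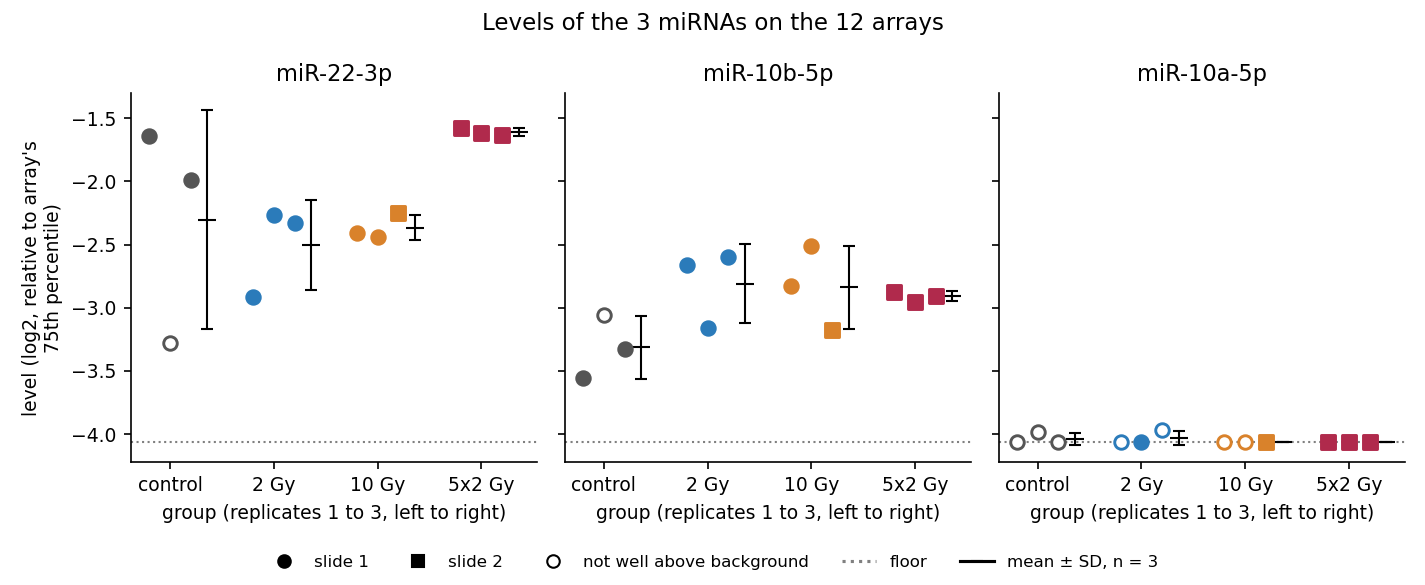
Level of each miRNA (log2, relative to the array's 75th percentile) on the 12 arrays by group, with replicates from left to right. Circles are arrays of slide 1, squares of slide 2, open symbols were not well above background, bars are mean ± SD (n = 3) and the dotted line is the floor at -4.06. The 5x2 Gy arrays sit at -1.63 to -1.58 for miR-22-3p, and miR-10a-5p lies at or within 0.1 of the floor on every array.

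For 5x2 Gy minus 2 Gy, the change of miR-22-3p was 0.89 (SE 0.37, 95% interval 0.04 to 1.75), with a limma adjusted p of 0.202 (Benjamini-Hochberg over the 118 miRNAs). That interval excludes 0, as an unadjusted p under 0.05 does, which 21.2% of the tested miRNAs had. It was the largest rise of the 118 in that comparison. The groups did not overlap, as was the case, in the upward direction, for 24.6% of the tested miRNAs. In that comparison 4.24% of the tested miRNAs passed the adjusted threshold. Without control replicate 2, which enters through the shared estimate of the spread and the set of probes used for scaling, the change was 0.84 with an adjusted p of 0.0328 (limma). In that fit 4 of the 118 tested miRNAs were called in this comparison.

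For 5x2 Gy minus 10 Gy, the same total dose in fractions against at once, the change of miR-22-3p was 0.76 (SE 0.37, 95% interval -0.10 to 1.61, limma adjusted p = 0.404). It ranked 2nd of 118 from the top. The groups did not overlap, with a background of 25.4% not overlapping upward and 2.54% called. Fitted on these 2 groups alone, whose own spreads were small, the same 0.76 had an adjusted p of 0.0123 in limma. In that fit 2 of 118 were called and 27 had an unadjusted p under 0.05, against 18 in the fit of all arrays. Within slide 2, which holds 3 arrays after 5x2 Gy and 1 after 10 Gy, the change was 0.64, a value given with no test because 1 of the groups has a single array. With slide as a block over all arrays it was 0.64 with an adjusted p of 1. Without control replicate 2 it was 0.72 with an adjusted p of 0.0803. Array brightness as a covariate lowered the changes against 10 Gy and 2 Gy to 0.30 and 0.42 (adjusted p = 0.702 and 0.535), and normexp background correction lowered them to 0.24 and 0.29 (adjusted p = 0.781 and 0.809). Under normexp the median of all 118 also moved, to -0.16 in both comparisons, from 0.03 and 0.04 in the main fit. No slide held both 5x2 Gy and 2 Gy arrays, and with slide as a block that change was 0.72 (adjusted p = 1).

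Against control, miR-22-3p changed by 0.69 after 5x2 Gy (SE 0.37, 95% interval -0.16 to 1.54, limma adjusted p = 0.255). The groups did not overlap, where 28% of the tested miRNAs did not overlap upward and 12.7% were called, but the highest control (-1.64) lay directly under the lowest 5x2 Gy array (-1.63). Without control replicate 2 the change fell to 0.18 (95% interval -0.25 to 0.61, adjusted p = 0.627). No slide held both groups. With slide as a block, estimated through the 10 Gy arrays, the change was 0.52 (adjusted p = 0.799), and with array brightness as a covariate it was -0.01 (adjusted p = 1).

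After the single doses the miR-22-3p values lay under those of control replicates 1 and 3 but above that of control replicate 2 (-3.28). Both single-dose groups thus overlapped with the controls. The change from control was -0.20 after 2 Gy (SE 0.37, limma adjusted p = 0.981) and -0.06 after 10 Gy (SE 0.37, adjusted p = 1). Of the tested miRNAs 0% were called after 2 Gy (11 had an unadjusted p under 0.05 in limma) and 0.847% after 10 Gy. Leaving out control replicate 2 moved these changes to -0.66 (95% interval -1.09 to -0.23, adjusted p = 0.0859) and -0.54 (95% interval -0.97 to -0.11, adjusted p = 0.123). Between the single doses, 10 Gy minus 2 Gy, the change was 0.14 (SE 0.37, 95% interval -0.72 to 0.99, adjusted p = 1), where 0% were called and 2 had an unadjusted p under 0.05. All 3 comparisons with control share the control arrays, so their results are not independent.

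**Figure D2:**
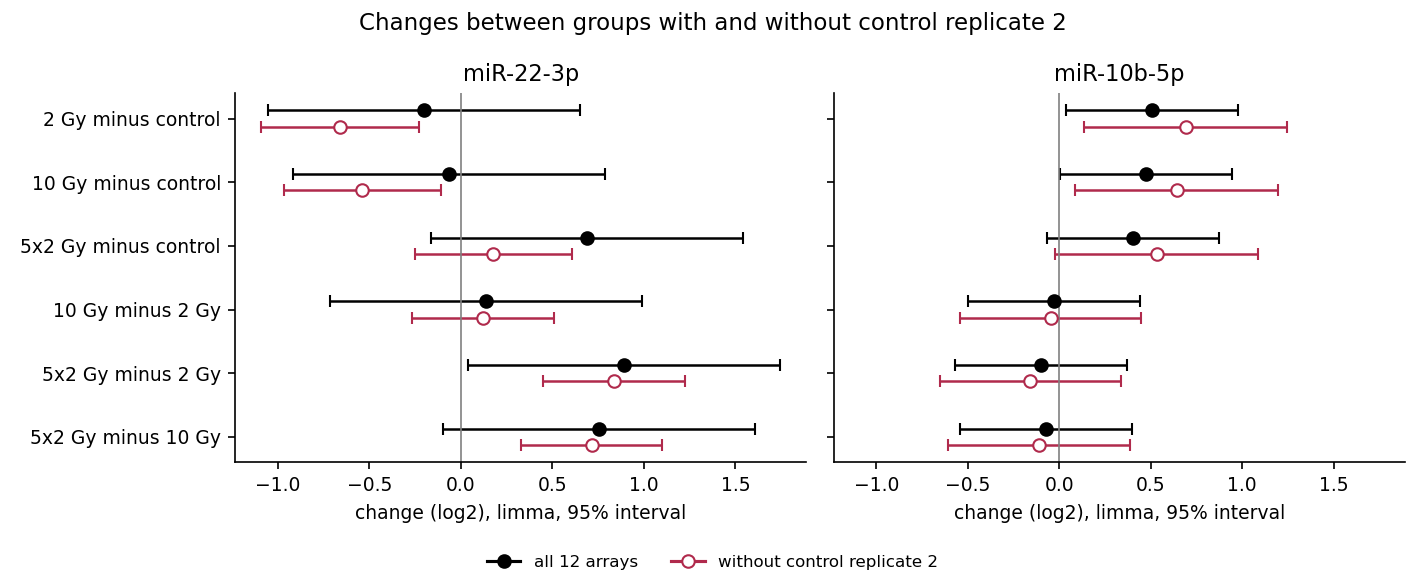
Change in level (log2) of miR-22-3p and miR-10b-5p in the 6 comparisons, with 95% intervals from limma, over all 12 arrays (filled) and without control replicate 2 (open). For miR-22-3p, the change after 5x2 Gy relative to control falls from 0.69 to 0.18 and that after 2 Gy from -0.20 to -0.66, while the changes relative to 2 Gy and 10 Gy move little.

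The probes of miR-22-3p agreed in direction in the comparisons of 5x2 Gy with the other groups, but not in every comparison. The brighter probe read 197, 19.6 and 309 intensity units in the controls, 74.3, 342 and 108 at 2 Gy, 131, 106 and 364 at 10 Gy, and 643, 611 and 576 with 5x2 Gy. The dimmer probe read 62.7, 5.09 and 102, then 23.8, 102 and 38.2, then 40.6, 30.3 and 91.2, and finally 206, 210 and 181. On control replicate 2 the dimmer probe was therefore within the signal of the negative control spots, whose mean per array ran from 4.92 to 9.69. Relative to the array's percentile and with no floor, 5x2 Gy exceeded 2 Gy by 0.90 and 0.88 on the dimmer and brighter probe, and exceeded 10 Gy by 0.86 and 0.65. On that scale 10 Gy minus control was -0.05 on the dimmer probe and 0.05 on the brighter, and 10 Gy minus 2 Gy was 0.04 and 0.24. The brighter probe was well above background on 11 of 12 arrays and its spots had a median coefficient of variation of 6.71% there. The dimmer probe was well above background on 9 of 12, with a median of 15.2% there. It was not so on control replicate 2, 2 Gy replicate 1 and 10 Gy replicate 2, so its differences rest in part on weak signal.

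**Figure D3:**
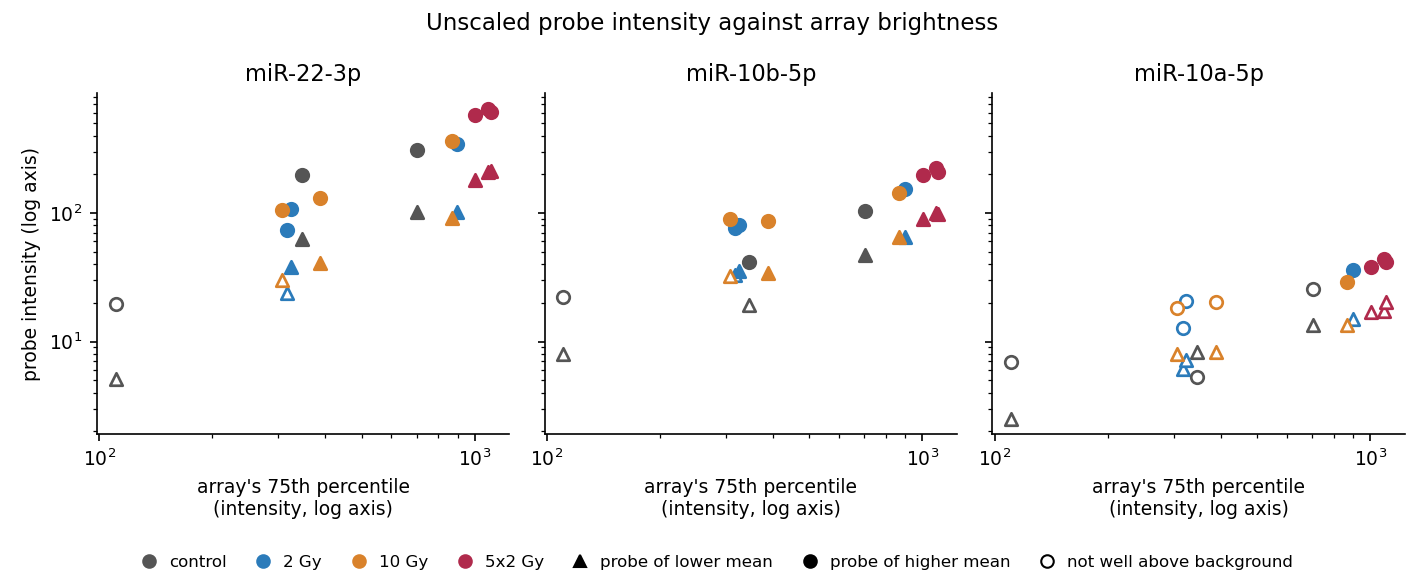
Probe intensity before scaling against the array's 75th percentile, both on log axes, for the 2 probes of each miRNA (triangles, probe of lower mean; circles, probe of higher mean), coloured by group, with open symbols not well above background. Intensity rises with array brightness for all 3 miRNAs, and the 5x2 Gy arrays are the brightest, at 1004 to 1102.

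The spread of miR-22-3p within groups was large for this array set. Its pooled SD was 0.47, the 8th highest of 118, where the median of the tested miRNAs was 0.14. Control replicate 2 lay 1.47 below the mean of the other 2 controls, while the median of this difference was 0.07 over the 71 miRNAs above the floor on every array. Whether the low signal of that array accounts for the difference was not tested.

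miR-10b-5p had a higher mean in every irradiated group than in the controls, by 0.40 to 0.51 on the log2 scale (1.32-fold to 1.42-fold). None of these changes passed the adjusted threshold. Between the irradiated groups the means lay within 0.10 of each other.

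The control levels of miR-10b-5p were -3.56, -3.06 and -3.33. The middle value is replicate 2, where it was not well above background, and it is the highest of the 3. On replicate 1 the dimmer of its probes, at -4.16, was raised to the floor before averaging. After 2 Gy the levels were -2.67, -3.16 and -2.60. The 10 Gy arrays read -2.83, -2.51 and -3.17, and the 5x2 Gy arrays read -2.87, -2.95 and -2.91. The 2 Gy and 10 Gy groups each had 1 array below the highest control, so they overlapped with it, and the 5x2 Gy arrays all lay above it. The same held for 28% of the tested miRNAs in that comparison. The means ± SD (n = 3 each) were -3.31 ± 0.25, -2.81 ± 0.31, -2.84 ± 0.33 and -2.91 ± 0.04 in the order control, 2 Gy, 10 Gy and 5x2 Gy. The 3 irradiated groups were neighbours in order that did not differ beyond their spread.

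The change of miR-10b-5p from control was 0.51 after 2 Gy (SE 0.21, 95% interval 0.04 to 0.98, limma adjusted p = 0.502). After 10 Gy it was 0.47 (95% interval 0.01 to 0.94, adjusted p = 0.236). Both intervals exclude 0, as an unadjusted p under 0.05 does, which 9.32% and 20.3% of the tested miRNAs had in these comparisons. After 5x2 Gy it was 0.40 (95% interval -0.07 to 0.87, adjusted p = 0.228). Its rank among the 118 changes, from the highest, was 3, 4 and 12 in the same order.

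Without control replicate 2, the changes of miR-10b-5p from control were 0.69, 0.64 and 0.53 after 2 Gy, 10 Gy and 5x2 Gy, with adjusted p of 0.146, 0.140 and 0.185 in limma. Within slide 1 the change was 0.51 after 2 Gy (adjusted p = 0.862) and 0.64 after 10 Gy (adjusted p = 0.358). With slide as a block it was 0.90 after 5x2 Gy (adjusted p = 0.313). With array brightness as a covariate the changes were 0.64, 0.62 and 0.82, and all passed (adjusted p = 0.0411, 0.0269 and 0.0252). In that fit 6, 26 and 28 of the 118 tested miRNAs were called, against 0, 1 and 15 in the main fit. Every 5x2 Gy array was brighter than all arrays of the other groups, so brightness and that group are confounded. With normexp background correction the direction turned in all 3, to -0.03, -0.07 and -0.44, where the median of all tested was -0.24, -0.26 and -0.44.

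Between irradiated groups, miR-10b-5p changed by -0.03 for 10 Gy minus 2 Gy (95% interval -0.50 to 0.44), by -0.10 for 5x2 Gy minus 2 Gy (-0.57 to 0.37) and by -0.07 for 5x2 Gy minus 10 Gy (-0.54 to 0.40), each with a limma adjusted p of 1. With slide as a block these became 0.14, 0.40 and 0.26, each again with an adjusted p of 1.

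Its brighter probe read 41.7, 22.0 and 104 intensity units in the controls, 75.9, 155 and 80.5 at 2 Gy, 87.3, 89.1 and 143 at 10 Gy, and 222, 208 and 199 with 5x2 Gy. The dimmer probe, well above background on 8 of 12 arrays, ran from 8.0 on control replicate 2 to 99.3 on 5x2 Gy replicate 1. Relative to the percentile and with no floor, the changes from control were, by rising total dose and then fractions, 0.53, 0.45 and 0.47 on the dimmer probe and 0.51, 0.53 and 0.37 on the brighter, so the direction was the same on both.

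miR-10a-5p, which differs from miR-10b-5p by that single base, was close to the limit of detection, and no change between groups is given for it. Of its 2 probes, 1 was well above background on 0 of 12 arrays, with intensities of 2.52 to 20.2. The other was well above background on 5 arrays. These were 2 Gy replicate 2, 10 Gy replicate 3 and all 3 after 5x2 Gy, which are the 5 brightest arrays. Its intensity was 5.32, 6.98 and 25.8 in the controls, 12.8, 35.8 and 20.7 at 2 Gy, 20.4, 18.3 and 28.8 at 10 Gy, and 44.1, 41.3 and 38.1 with 5x2 Gy. Relative to array brightness these fell at the floor on every detected array.

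The scaled level of the brighter miR-10a-5p probe with no floor was -4.93 ± 1.03 in controls, -4.41 ± 0.39 in the 2 Gy group, -4.41 ± 0.45 in the 10 Gy group and -4.69 ± 0.06 in the 5x2 Gy group (n = 3 each). The dimmer probe had means of -5.52, -5.70, -5.60 and -5.87 in the same order. The lowest mean was thus in controls on the brighter probe and after 5x2 Gy on the dimmer. Unscaled intensity was highest after 5x2 Gy and the scaled level was not. It was well above background on 0 control arrays. The 5x2 Gy mean minus the lowest detected signal of the control arrays was -1.32 on the log2 scale, so no bound on a fold can be given.

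**Figure D4:**
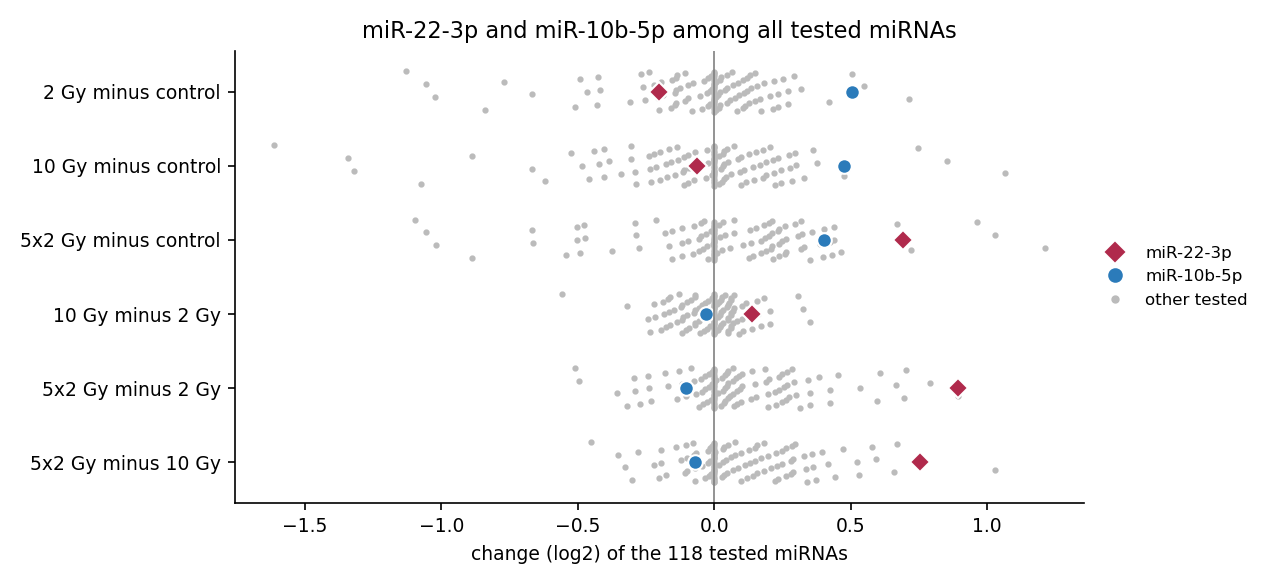
Change (log2) of each of the 118 tested miRNAs in the 6 comparisons (grey), with miR-22-3p (diamond) and miR-10b-5p (circle) marked. miR-10a-5p, at or near the floor, is not marked. miR-22-3p has the largest rise for 5x2 Gy minus 2 Gy (0.89) and lies below 0 for 2 Gy minus control (-0.20), while miR-10b-5p lies to the right in the comparisons with control (0.40 to 0.51).

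The opposite arms of the hairpins were not detected. miR-22-5p, miR-10a-3p and miR-10b-3p were well above background on 0 arrays by probe, with 1 of 230, 0 of 235 and 0 of 236 spots well above background. The other Hox-embedded entries of the list, miR-196a-5p, miR-196b-5p, miR-615-3p and miR-615-5p, were likewise detected on 0 arrays, so the miR-10 pair made up the 2 tested of 6.

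Relatives of miR-10 with a different seed were also on the array. They are shown with their seeds in capitals for comparison with the miR-10 sequences above.
miR-99a-5p: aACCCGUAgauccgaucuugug
miR-99b-5p: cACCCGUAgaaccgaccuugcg
miR-100-5p: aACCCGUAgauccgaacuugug
miR-99b-5p read -2.08, -3.07 and -2.49 in the controls, with replicate 2 not well above background, and -3.04, -2.60 and -2.76 after 2 Gy. It read -2.80, -2.88 and -2.37 after 10 Gy and -2.14, -2.13 and -2.04 after 5x2 Gy. Its 5x2 Gy arrays lay above all arrays of the single doses, as for miR-22-3p, with changes of 0.69 against 2 Gy (limma adjusted p = 0.151) and 0.58 against 10 Gy (adjusted p = 0.305). Of the tested miRNAs 24.6% and 25.4% did not overlap upward in these comparisons. miR-100-5p was higher after 5x2 Gy than in controls by 0.23 (limma adjusted p = 0.00743), but at -3.83 to -3.79 it lay near the floor, and the adjusted p was 0.110 without control replicate 2 and 0.321 with slide as a block. It entered the tested set only through the 5x2 Gy group, with detection on 1 of 3 arrays in each other group. Control replicates 2 and 3 lay at the floor, which narrows the control spread, so that call is not taken as support for a rise. miR-99a-5p was at the floor on every array.

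The p53-responsive list, of which miR-22-3p is a member, had 9 of its 15 entries tested. After 2 Gy 0 of the 9 passed relative to control, after 10 Gy 1 rose and after 5x2 Gy 2 rose, with 0 falling. Over all 118 tested miRNAs the called share in these comparisons was 0%, 0.847% and 12.7%. The list's median change was 0.00, 0 and 0.20, where the median of all 118 was 0, 0 and 0.00, entries at the floor included. Over entries above the floor on every array, the medians were 0.07, 0.03 and 0.50 for 6 of the list, beside 0.02, 0.03 and 0.17 for all 71. miR-34b-5p, a direct p53 target that restrains proliferation, was -1.71, -1.65 and -1.87 in controls and -0.55, -0.55 and -0.49 after 5x2 Gy, with no overlap. Of the tested miRNAs 28% did not overlap upward in that comparison. miR-34b-5p rose by 0.85 after 10 Gy (adjusted p = 0.0239) and 1.21 after 5x2 Gy (adjusted p = 0.000888, limma), and by 0.91 and 1.23 without control replicate 2 (adjusted p = 0.0337 and 0.00491). Within slide 1 its change after 10 Gy was 0.89 (limma adjusted p = 0.358). With slide as a block the changes were 0.89 after 10 Gy (adjusted p = 0.0879) and 1.31 after 5x2 Gy (adjusted p = 0.0748), so neither call held there. miR-107-3p rose by 0.20 after 5x2 Gy (adjusted p = 0.00623), by 0.25 without control replicate 2 (adjusted p = 0.0235), and with slide as a block differed by 0.22 with no call (adjusted p = 0.254). miR-34c-5p, of the same cluster as miR-34b, differed by 0.96 after 5x2 Gy (adjusted p = 0.161). miR-34a-5p was detected on 0 arrays.

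The list of miRNAs known to target Cdkn1a, which also holds miR-22-3p, had 5 of its 7 names matched to tested entries. Of these 5, 0 were called in each of the 6 comparisons (limma). The other names, miR-17-5p and miR-106a-5p, were on the array under the older names miR-17_v17.0 and miR-106a_v17.0. Both were tested, but they are not in this list's counts or medians. Relative to the single doses all 5 matched entries had positive changes after 5x2 Gy, with medians of 0.27 against 2 Gy and 0.29 against 10 Gy, where the medians of all 118 were 0.04 and 0.03. Of all 118, 66 and 63 had positive changes in these comparisons, and over the 71 above the floor on every array, as all 5 were, the medians were 0.10 and 0.13. miR-93-5p, of the miR-17 family, differed by 0.34 from 10 Gy (adjusted p = 0.165), and miR-106b-5p by 0.27 from 2 Gy (adjusted p = 0.151). With array brightness as a covariate the list's medians were 0.14 and 0.18, with 4 and 5 of 5 positive, and with slide as a block they were 0.03 and 0.14, with 3 and 4 of 5 positive. None was called under either setting in these comparisons (limma).

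Likeness of pattern was measured by Pearson's r of the level over the 11 arrays other than control replicate 2, among 61 other miRNAs detected on all 11. These points share the arrays, their brightness and their scaling. The 5 most like miR-22-3p were miR-99b-5p (r = 0.95), miR-31-5p (0.90), miR-93-5p (0.82), miR-92a-3p (0.80) and miR-26a-5p (0.79), against a median r of 0.20. Over all 12 arrays these r were 0.94, 0.81, 0.68, 0.52 and 0.82 in that order. The 5 most like miR-10b-5p were miR-23a-3p (0.92), miR-23b-3p (0.92), miR-34c-5p (0.91), miR-365-3p (0.90) and miR-199a-3p (0.90), against a median of 0.17. With all 12 arrays they were 0.84, 0.87, 0.90, 0.83 and 0.89. miR-22-3p and miR-10b-5p had an r of -0.49 with each other over the 11 arrays and -0.32 over all 12. The summed level of the 4 tested fibroblast and mesenchymal entries, miR-199a-3p among them, ran from 0.61 to 0.90 in controls, 0.75 to 1.03 at 2 Gy, 0.94 to 1.10 at 10 Gy and 1.02 to 1.10 with 5x2 Gy. Its part in the miR-10b-5p values was not tested.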

How the data were processed

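The deposited scanner files hold linear spot intensity, and the submitters' processing notes name Agilent Feature Extraction 10.7.3.1. Background subtraction and spatial detrending had been applied to the processed signal per the file headers. Other deposited columns were the 0 or 1 spot flags and a total signal per miRNA. The log2 values deposited by the authors equal log2 of the processed signal, with values under 1 set to 1, plus 1 constant per array. Control and outlier spots were left out here, and probe means were taken over spots. Scaling used the 75th percentile of the 78 probes detected on every array (over 0.5 of spots well above background), then a floor of 0.0598 of it, then log2. Levels average a miRNA's probes detected on at least 3 arrays. Of 576 entries 118 were tested, 71 of them with an averaged level above the floor on every array. All 12 arrays entered 1 limma fit (limma 3.58.1, R 4.3.3, 8 residual and 0.45 prior degrees of freedom), two-sided, with Benjamini-Hochberg adjustment at 0.05. On simulated data for 5x2 Gy minus control over 118 miRNAs, 20 of 20 changes of log2 size 2 were recovered, with 1 false call. That size exceeds every change of the 3 miRNAs in the main fit, so recovery at their sizes was not tested. The number of arrays limits the precision. Normexp (offset 50) was run on the median and background median signals. Named were the 3 miRNAs, their opposite arms, relatives, 3 lists (called entries and at most 3 others of smallest p) and the 5 of highest r. That rule asked for r over 12 arrays, for miRNAs detected on all of them. None of the 3 was, so 11 arrays were used, a choice made after seeing the data, as was the total signal alternative. The miRNAs and lists were chosen with earlier results of these data known.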

Additional observations from a re-analysis of the deposited data

How the results depend on the processing

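The control group limits these results: control replicate 2 was the dimmest array, and most directions below that turn are of changes that passed no test. The cause of a turn or a gained call was not tested. Leaving out 1 array at a time, miR-22-3p ranged from -0.66 to 0.22 for 2 Gy minus control, -0.54 to 0.36 for 10 Gy minus control, 0.18 to 1.12 for 5x2 Gy minus control, 0.72 to 0.81 for 5x2 Gy minus 10 Gy, 0.69 to 0.99 for 5x2 Gy minus 2 Gy and -0.066 to 0.23 for 10 Gy minus 2 Gy. miR-10b-5p ranged, in the same order, from 0.38 to 0.69, 0.33 to 0.64, 0.25 to 0.53, -0.24 to 0.091, -0.28 to 0.0042 and -0.19 to 0.11. The number of called miRNAs ranged from 0 to 6, 0 to 8, 6 to 16, 1 to 10, 3 to 11 and 0 to 0, against 0, 1, 15, 3, 5 and 0 with all arrays (11, 24, 36, 18, 25 and 2 at an unadjusted p under 0.05 in limma). With the percentile over all probes, miR-22-3p gave 0.18 for 10 Gy minus control, and 2.08, 1.90 and 2.33 for 5x2 Gy minus control, 10 Gy and 2 Gy, the last 3 called. miR-10b-5p gave 0.29 for 10 Gy minus 2 Gy, and 1.85, 1.08 and 1.36 for 5x2 Gy minus control, 10 Gy and 2 Gy. There 102, 90 and 109 of 118 miRNAs were called for 5x2 Gy minus control, 10 Gy and 2 Gy, with median shifts of 1.42, 1.09 and 1.34. The median shift was 0.17 both for 10 Gy minus control and for 10 Gy minus 2 Gy. Across the alternative settings the lowest limma adjusted p of miR-10b-5p was 0.000914, 0.0111 and 0.00283 for 5x2 Gy minus control, 10 Gy and 2 Gy. Each of these comparisons was thus called for miR-10b-5p in some setting. In the authors' values, miR-22-3p gave 0.31, 0.55 and 2.29 against control after 2 Gy, 10 Gy and 5x2 Gy. The median of all tested was 0.45, 0.56 and 1.68 there. miR-10b-5p gave 0.076 for 10 Gy minus 2 Gy, and 1.89, 0.88 and 0.96 for 5x2 Gy minus control, 10 Gy and 2 Gy. The medians of all tested were 0.091, 1.68, 1.17 and 1.22 in that order. The counts were 0 for 10 Gy minus control, and 84, 0 and 2 for 5x2 Gy minus control, 10 Gy and 2 Gy. With normexp, miR-22-3p gave -0.11 for 5x2 Gy minus control, and miR-10b-5p -0.031, -0.074 and -0.44 against control after 2 Gy, 10 Gy and 5x2 Gy, where the median of all tested was -0.24, -0.26 and -0.44. The counts were 2 for 10 Gy minus control, all lower, and 2, 0 and 0 for 5x2 Gy minus control, 10 Gy and 2 Gy, the 2 lower. With quantile scaling, miR-22-3p gave 0.013 for 10 Gy minus control, and the counts were 1 and 5 against control after 2 Gy and 10 Gy, and 8, 1 and 2 for 5x2 Gy minus control, 10 Gy and 2 Gy. With array brightness as a covariate, miR-22-3p gave -0.014 for 5x2 Gy minus control. miR-10b-5p gave 0.64, 0.62 and 0.82 against control, all called, and 0.20 and 0.18 for 5x2 Gy minus 10 Gy and 2 Gy. The counts were 6, 26 and 28 against control and 8 for 5x2 Gy minus 2 Gy, with 4, 14 and 21 of those against control higher. With slide as a block, miR-10b-5p gave 0.14 for 10 Gy minus 2 Gy, 0.26 for 5x2 Gy minus 10 Gy and 0.40 for 5x2 Gy minus 2 Gy, and the counts were 0 for 10 Gy minus control and 1 in each comparison of 5x2 Gy. Within slide 1, miR-10b-5p gave 0.14 for 10 Gy minus 2 Gy and the count for 10 Gy minus control was 0. Within slide 2, with a single 10 Gy array, 5x2 Gy minus 10 Gy gave 0.64 for miR-22-3p and 0.26 for miR-10b-5p, and 9 miRNAs lay under the threshold where the lone array is assumed to vary like the others. With the brightest probe, miR-22-3p gave 0.048 for 10 Gy minus control and miR-10b-5p 0.021 for 10 Gy minus 2 Gy, with counts of 1 and 2 against control after 2 Gy and 10 Gy. With only the groups compared, miR-22-3p was called at 0.76 for 5x2 Gy minus 10 Gy, where 2 of 118 were called, and 2 miRNAs for 10 Gy minus control. With no filter, 0 were called for 10 Gy minus control, and 6, 1 and 2 for 5x2 Gy minus control, 10 Gy and 2 Gy. With miRNAs detected on all arrays only, none of the 3 is tested, and 6 and 0 were called for 5x2 Gy minus control and 10 Gy. With the floor 4 times lower, 25 and 8 were called for 5x2 Gy minus control and 2 Gy. With the total signal per miRNA, an alternative chosen after seeing the data, miR-22-3p gave 0.19 for 10 Gy minus control, and 5 and 8 were called for 5x2 Gy minus 10 Gy and 2 Gy. The median of the 138 miRNAs tested in that setting was 0.14 for 10 Gy minus control.

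Over 18 pairs of samples with the same replicate number the correlation of deviations ran from -0.90 to 0.78, with 6 over 0.1. Pairs with different numbers were not compared, so these values do not decide whether the samples were paired. With the replicate number as a block, miR-22-3p kept 0.69 for 5x2 Gy minus control and 0.76 for 5x2 Gy minus 10 Gy (limma adjusted p = 0.321 and 0.541), miR-10b-5p kept 0.40 for 5x2 Gy minus control (adjusted p = 0.321), and 0 and 3 miRNAs were called for 10 Gy minus control and 5x2 Gy minus 2 Gy. miR-34b-5p was not called for 10 Gy minus control there (0.85, adjusted p = 0.123).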
